A study of Mus musculus with 2 samples.

Results

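Levels of 10 antioxidant and thioredoxin genes were measured in regulatory T cells that had experienced inflammation. The genes encode thioredoxin (Txn1), its binding partner Txnip, the peroxiredoxins Prdx1, Prdx2 and Prdx5, the glutathione peroxidases Gpx1 and Gpx4, the superoxide dismutases Sod1 and Sod2, and catalase (Cat). They were chosen by name with no rule on level, though earlier results of these data were known. All 10 were found among the 55536 annotated genes of the larger gene table. Polyadenylated RNA came from an adult male mouse of 6 months and of the strain Foxp3CreERT2 x Rosa26YFP, in which a recombinase driven by Foxp3 can switch on a fluorescent reporter. The labels trace these primary cells to bone marrow hematopoietic cells. They name 1 group with 1 biological replicate, which was sequenced as 2 technical libraries. No untreated or other cells were analysed here, so the values describe levels and no response to inflammation, and the SD covers technical spread only.

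Superoxide dismutases turn superoxide into hydrogen peroxide, and catalase, peroxiredoxins and glutathione peroxidases remove peroxides. Peroxiredoxins are reduced again by thioredoxin, and glutathione peroxidases by glutathione, with both routes drawing on NADPH. In T cells, hydrogen peroxide made near activated receptors also acts as a signal, and Txnip, an alpha-arrestin that binds reduced thioredoxin, is known to restrain glucose uptake.

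The chemistry of these enzymes rests on a reactive cysteine or on selenocysteine, the selenium form of cysteine that is encoded by TGA, otherwise a stop codon. The sequences below show those codons in capitals, each with 30 coding bases on either side, 5′ to 3′ on the coding strand (GENCODE M21 on GRCm38, the same assembly as mm10). They are shown because 3 later results turn on them: how alike members are, which transcript models hold the codon, and how close a pseudogene comes.
Txn1: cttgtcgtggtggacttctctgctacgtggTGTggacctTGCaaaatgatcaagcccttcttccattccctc
Prdx1: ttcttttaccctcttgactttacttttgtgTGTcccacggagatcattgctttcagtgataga
Prdx2: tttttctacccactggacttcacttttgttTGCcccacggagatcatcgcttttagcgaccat
Prdx5: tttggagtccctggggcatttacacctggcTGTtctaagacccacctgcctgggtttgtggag
Gpx1: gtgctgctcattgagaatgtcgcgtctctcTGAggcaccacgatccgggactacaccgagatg
Gpx4: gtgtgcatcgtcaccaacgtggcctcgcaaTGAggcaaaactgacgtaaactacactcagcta
Gpx4-ps2: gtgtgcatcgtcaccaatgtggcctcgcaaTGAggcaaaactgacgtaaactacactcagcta
The Txn1 stretch holds both active-site cysteine codons and is spliced from chr4:57950893-57951862 on the minus strand. Prdx1 (chr4:116691793-116691855, plus strand), Prdx2 (chr8:84970453-84970515, plus strand) and Prdx5 (spliced from chr19:6907650-6908020, minus strand) show the codon of the peroxide-reducing cysteine. Gpx1 (chr9:108339421-108339483, plus strand) and Gpx4 (chr10:80054707-80054769, plus strand) show the selenocysteine codon. The last line is the matching stretch of the pseudogene Gpx4-ps2 (chr10:45875438-45875500, plus strand). Prdx1 and Prdx2 differed at 14 of the 63 bases shown and were 69.87% identical over 594 aligned coding bases. Prdx5, an atypical peroxiredoxin found in several compartments, was 47.74% identical to Prdx1 over 574 coding bases. Gpx1 and Gpx4 were 50.27% identical over 563 coding bases. No stretch of 50 bases was common to any pair of the 10 genes. This length was used because the deposited effective length was 49 bases shorter than the length for 99.9% of entries. The Gpx4 and Gpx4-ps2 stretches differed at 1 of 63 bases.

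The larger gene table held 15386113 gene counts in technical replicate 1 and 13604480 in technical replicate 2. T cell markers (7 of 7) and regulatory T cell markers (6 of 6) reached 1 TPM (transcripts per a fixed sum over all genes, scaled by length) in each library, with Foxp3 at 22.1 and 17.9 TPM. Markers of other cells were also measured. Neutrophil markers summed to 0.52 and 0.85 TPM with 0 of 7 detected, and monocyte and macrophage markers to 6.92 and 4.86 TPM with 1 of 9 detected. B cell markers summed to 40.4 and 32.4 TPM, of which Cd79b held 36.6 and 29.7 TPM, a sum above the level of Foxp3. All 3 CD8 T cell markers were detected, at 15.7 and 14.8 TPM in sum, led by Cd8b1 at 11.44 and 11.02 TPM. The part of other cells in the levels of the 10 genes was not tested. In bulk RNA, fewer cells of a type and less RNA per cell cannot be told apart.

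All 10 genes were detected, with at least 1 TPM in each library, as were 46.7% of protein-coding genes and 24.3% of all annotated genes. Of the 10, 7 reached 100 TPM in both libraries, against 5.25% of protein-coding genes. Their median was 239 TPM, against 18.3 TPM for the 10288 detected protein-coding genes. Together they held 3065 and 3048 TPM. Their share of the gene counts, a separate quantity, was 0.232% and 0.230%. These values sum all transcript models of a gene. Several statements on order below change with CCDS transcripts, a curated set of complete coding sequences, or in a smaller gene table. The order of the 10 genes on each measure is given further below.

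The superoxide dismutases marked both ends of the range in TPM. Sod1, the copper and zinc enzyme of the cytosol (ENSMUSG00000022982, chr16:90220754-90226329, plus strand), stood at 986 and 988 TPM in technical replicates 1 and 2, from 7437 and 6610 estimated counts. Its mean of 987 ± 1.22 TPM (SD, n = 2) placed it at rank 114 of the detected protein-coding genes. Sod2, the manganese enzyme of the mitochondrial matrix (ENSMUSG00000006818, chr17:13006846-13040063, plus strand), stood at 45.3 TPM in both libraries, from 1209 and 1042 counts. The level of Sod1 was 21.8 times that of Sod2 in each library. The ratio was 90.4 and 95.2 with CCDS transcripts and 8.58 and 8.48 per kilobase in the smaller table. Its direction held and its size did not. All values per kilobase used the gene lengths of the larger table, which depend on its shares of transcript models. For Sod2 these were 2196 and 2142 bases, against 5861 bases for its CCDS transcript.

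Catalase, which breaks down hydrogen peroxide in peroxisomes, was the next lowest member by TPM over all models. It had rank 9 there, rank 7 with CCDS transcripts and rank 8 per kilobase in the smaller table. Cat (ENSMUSG00000027187, chr2:103453849-103485160, minus strand) stood at 71.1 TPM and 62.4 TPM in the same order, with 95% Poisson intervals of 68.1 to 74.3 and 59.4 to 65.5 TPM. These intervals cover counting error only and did not overlap. Catalase and Prdx2 are also abundant in red cells. Erythroid markers summed to 24.2 and 26.3 TPM, with 5 of 8 measured markers detected, and Slc4a1 had no read in either library. The part of red cell RNA in the levels of Cat and Prdx2 was not tested.

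The peroxiredoxins lay between Sod1 and Txn1 by TPM over all models. Prdx1, an abundant peroxiredoxin of the cytosol and nucleus (ENSMUSG00000028691, chr4:116685544-116700822, plus strand), stood at 506 and 493 TPM, from 5989 and 5300 counts. Prdx2, its cytosolic relative (ENSMUSG00000005161, chr8:84969587-84974834, plus strand), stood at 216 and 222 TPM, from 2100 and 1849 counts. Prdx5 (ENSMUSG00000024953, chr19:6906697-6910106, minus strand) stood at 183 TPM in both libraries. Prdx1 thus held 2.34 and 2.22 times the TPM of Prdx2. With CCDS transcripts the ratio was 5.22 and 5.86, and per kilobase in the smaller table the direction turned, at 0.751 and 0.757.

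By TPM over all models, thioredoxin itself was lower than Prdx1, Prdx2 and Prdx5, but with CCDS transcripts it stood at 99.4 TPM, above Prdx5 (53.6 TPM) and Prdx2 (42.3 TPM). Txn1 (ENSMUSG00000028367, chr4:57943373-57956411, minus strand) stood at 93.8 and 105 TPM, from 1168 and 1155 counts. Txnip (ENSMUSG00000038393, chr3:96557957-96561883, plus strand) stood at 263 and 257 TPM, from 7209 and 6239 counts. The transcript of the inhibitor exceeded that of thioredoxin 2.81 and 2.44 times, and the 4 values did not overlap. The ratio was 2.10 and 1.84 with CCDS transcripts and 1.71 and 1.53 per kilobase in the smaller table. These are ratios of transcripts and say nothing of protein amounts.

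Both selenium-containing peroxidases were among the 4 highest members by TPM over all models. Gpx4 had rank 4 there, rank 6 with CCDS transcripts and rank 9 per kilobase in the smaller table, and Gpx1 had ranks 3, 4 and 1. Gpx1, the cytosolic and mitochondrial glutathione peroxidase (ENSMUSG00000063856, chr9:108338903-108340343, plus strand), stood at 368 and 374 TPM, from 3742 and 3336 counts. Gpx4, which reduces lipid peroxides within membranes and thereby protects cells from ferroptosis (ENSMUSG00000075706, chr10:80047166-80056439, plus strand), stood at 331 and 319 TPM. Gpx1 held 5.18 and 5.99 times the TPM of Cat, whose product also breaks down hydrogen peroxide. The ratio was 2.84 and 3.13 with CCDS transcripts and 3.00 and 3.43 per kilobase in the smaller table.

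**Figure D1:**
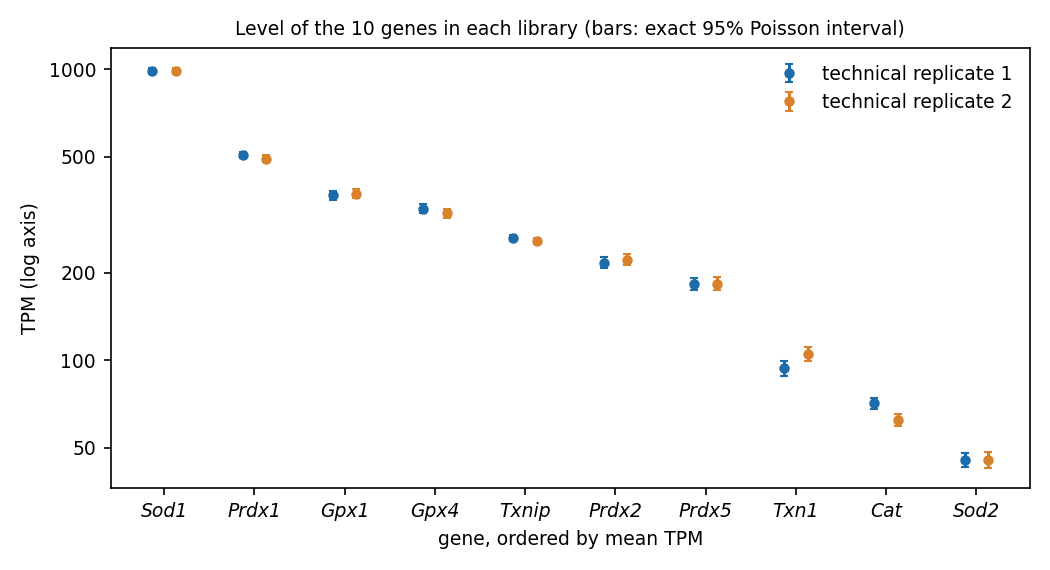
TPM of the 10 genes on a log axis, with 1 point per technical library and bars for the exact 95% Poisson interval. Sod1 stands highest at 987 TPM and Sod2 lowest at 45.3 TPM, and the points of each gene lie close together.

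By mean TPM the order was Sod1 (987 ± 1.22), Prdx1 (499 ± 9.56), Gpx1 (371 ± 3.85), Gpx4 (325 ± 8.37), Txnip (260.1 ± 4.81), Prdx2 (219 ± 4.15), Prdx5 (183 ± 0.14), Txn1 (99.4 ± 7.90), Cat (66.8 ± 6.19) and Sod2 (45.3 ± 0.014). The libraries gave the same order. In all 9 pairs of neighbours the values of both libraries and their Poisson intervals were apart, with ratios from 1.14 for Gpx1 over Gpx4 to 1.98 for Sod1 over Prdx1. The coefficient of variation between libraries ran from 0.031% for Sod2 to 9.28% for Cat. An SD over a pair of libraries can lie below the counting error, so the small values for Sod2 and Prdx5 do not show that these levels are known that closely.

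The summed levels include models that do not encode the enzyme. Transcripts with a coding sequence in the CCDS set took a share of each gene's TPM that ran from 100% to 19.4%. Txn1 (100%), Sod1 (99.5% ± 0.055) and Cat (87.7% ± 2.74) were almost wholly of this kind. Txnip followed with 75.0% ± 0.46 of TPM and 93.8% of counts, and the rest was mainly the short processed transcript Txnip-204 at 65.2 and 59.0 TPM.

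For Prdx1 the CCDS transcripts Prdx1-202 and Prdx1-204 took 46.9% ± 2.63 of TPM. The incomplete models Prdx1-201 (132 and 184 TPM) and Prdx1-205 (145 and 66.0 TPM) differed in opposite directions between the libraries, and the gene total stood at 506 and 493 TPM. For Prdx2 the CCDS share was 19.4% ± 1.23, and the largest share of TPM went to Prdx2-205, a retained-intron model of 549 bases, at 49.5% and 52.4%. For Prdx5 the CCDS transcript Prdx5-201 took 28.9% and 29.7%, less than the incomplete Prdx5-205 at 40.7% and 40.5%. TPM weighs short models up, and by counts the CCDS shares were 68.3% for Prdx1, 36.3% for Prdx2 and 47.0% for Prdx5.

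The selenocysteine codons bear on the glutathione peroxidases. Gpx1-201, the CCDS transcript of 201 codons that holds the codon shown above, took 47.1% and 46.9% of TPM and 59.0% of counts. Gpx1-204 (41.3% and 44.7%) and Gpx1-202 (10.9% and 7.21%) are annotated with a coding sequence that begins at position 108339481 of chromosome 9, past the selenocysteine codon that begins at 108339451. For Gpx4, the leading model was Gpx4-207 of 157 codons (66.7% and 69.4% of TPM), and the CCDS transcript Gpx4-202 of 197 codons took 31.2% and 28.4%. Both are annotated as coding and hold the selenocysteine codon, which begins at position 80054737. The coding sequence of Gpx4-207 begins before it, at 80054550. Whether the shorter product of Gpx4-207 is active was not tested. Gpx4-201 of 253 codons, the model of the nuclear form known from sperm, was assigned 0 counts in both libraries.

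Sod2 had the largest gap between both ways of counting. Its CCDS transcript Sod2-201, of 5861 bases, took 23.4% ± 0.86 of TPM but 64.0% ± 1.21 of counts. The processed transcript Sod2-207 took 42.9% and 46.6% of TPM and the retained-intron model Sod2-204 another 28.0% and 28.3%. The CCDS level of Sod2 was 10.6 ± 0.38 TPM.

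**Figure D2:**
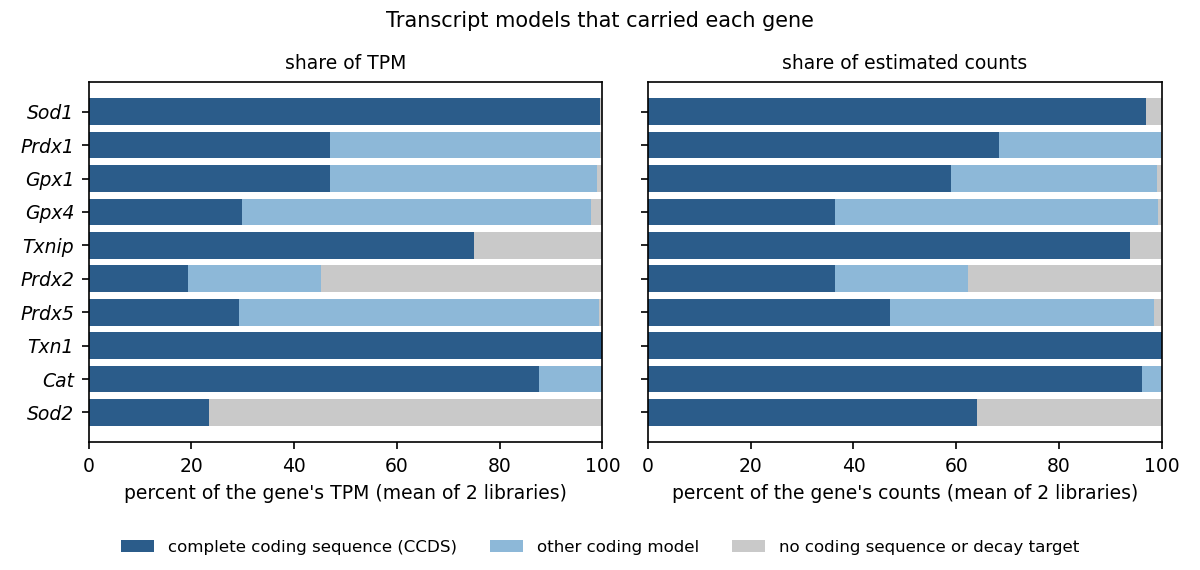
Share of each gene's TPM and of its counts by class of transcript model, as the mean of the libraries in percent. Txn1 and Sod1 consist almost wholly of CCDS transcripts, whereas Prdx2 has 54.8% and Sod2 has 76.6% of TPM in models without a coding sequence or marked for decay.

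With CCDS transcripts alone, the order became Sod1 (982 ± 0.67 TPM), Prdx1 (234 ± 8.67), Txnip (195 ± 2.41), Gpx1 (174 ± 1.11), Txn1 (99.4 ± 7.90), Gpx4 (97.04 ± 8.97), Cat (58.5 ± 3.61), Prdx5 (53.6 ± 1.00), Prdx2 (42.3 ± 1.89) and Sod2 (10.6 ± 0.38). Sod1 and Prdx1 stayed at the top and Sod2 at the bottom, and Prdx2 went from rank 6 to rank 9. Txn1 and Gpx4 overlapped between libraries on this measure (93.8 and 105 TPM against 103 and 90.7 TPM). The CCDS level of Gpx4 leaves out Gpx4-207, although that model holds the selenocysteine codon. How well the deposited estimates divide reads between models of a gene was not tested.

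Copies and overlapping genes touch the same levels. Of the stretches of 50 bases in the CCDS transcript Gpx4-202, 68.9% also occur in another annotated gene, and for Gpx4-207 the share was 78.4%. For the CCDS transcripts of the other genes the share was 29.7% for Prdx5-201, 29.5% for Prdx1-202, 10.9% for Prdx1-204, 17.3% to 24.0% for those of Prdx2, 23.1% for Sod1-201, 18.4% and 18.5% for those of Txnip, 2.50% for Txn1-201 and 1.43% for Sod2-201. Prdx1-204 held more counts (2631 and 2392) than Prdx1-202 (1376 and 1303). Over all models of a gene the share was 34.7% for Gpx4, 21.04% for Sod2, 15.68% for Txnip, 15.54% for Prdx5 and 12.04% for Prdx2. It was 8.81% for Prdx1, 3.42% for Sod1 and 2.50% for Txn1. Gpx1 and Cat shared none.

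The closest copy was Gpx4-ps2, a transcribed processed pseudogene, with 2 mismatches in 555 aligned bases (99.64% identity). It was assigned 64.0 and 56.0 TPM, from 583 and 450 estimated counts. The authors' posterior SD of the Gpx4 count, which measures how firmly reads could be assigned, was 61.4 and 50.7 reads, close to the counting error of 55.5 and 51.0 reads. For the other 9 members it was at most 9.20 reads, and 0 for Gpx1 and Cat. The pseudogene Gm8566 stood at 8.46 and 10.6 TPM beside Sod1, and 5 pseudogenes that share sequence with Prdx1 summed to 10.6 and 11.02 TPM, led by Gm21399 (5.63 and 7.08 TPM) and Gm7204 (1.28 and 2.07 TPM). Prdx5 shares 360 stretches with Trmt112 (149 and 154 TPM), and Prdx2 shares fewer with Junb (24.7 and 33.9 TPM) and Rnaseh2a (54.3 and 69.9 TPM), genes that overlap them on the opposite strand. Txnip overlaps the antisense gene Gm15441 (3.00 and 2.53 TPM). The strand setting of the counting was not given in the sources used here, so reads from overlapping genes on opposite strands cannot be told apart.

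A smaller gene table of whole-number counts, made from genome alignments with the older GENCODE M4 genes, gave separate counts. Its values per kilobase were not a separate measure, since their gene lengths came from the larger table. Gpx4 held 217 and 215 counts there, against 3076 and 2598 in the larger table. As a share of the genes common to both tables (CPM, counts scaled to a fixed total of those genes), on a scale of log2(CPM + 1), Gpx4 was 3.38-fold lower in the smaller table (log2 -1.76 ± 0.12, SD, n = 2), Prdx1 2.64-fold lower (log2 -1.40 ± 0.078) and Sod1 2.49-fold lower (log2 -1.31 ± 0.071). Cat (log2 0.90 ± 0.042) and Prdx5 (log2 0.83 ± 0.012) took larger shares there. The median log2 value was 0.06 for the 10 members and 0.59 for the 9787 matched genes with at least 100 counts, whose 5th and 95th percentiles were -2.57 and 1.51. The 3 lowest members lay at percentiles 8.16 to 10.9 of those genes.

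Over all 9787 genes the value varied with shared sequence. Its median was 0.74 for 3340 genes with no shared stretch of 50 bases, 0.60 for 4472 genes with up to 10%, 0.32 for 1561 genes with over 10% to 50%, and -1.82 for 414 genes with over 50%. By the same measure over all models, Gpx4 falls in the class of over 10% to 50%, and Prdx1 and Sod1 in the class of up to 10%. Each lay below the median of its class. Sod2, Txnip, Prdx2 and Prdx5 also fall in the class of over 10% to 50%, with log2 values of -0.045, -0.269, 0.209 and 0.828. Prdx5 thus lay above the median of that class, and Sod2, Txnip and Prdx2 lay below it. For several members, Gpx4, Prdx1, Sod1 and Sod2 among them, the class depends on the models counted. Gpx4-207 and Gpx4-202, which held most counts of Gpx4, shared 78.4% and 68.9%, in the range of the class of over 50%. Sod1-201, with 97.1% and 96.6% of the counts of Sod1, shared 23.1%. Prdx1-202 and Prdx1-204 shared 29.5% and 10.9%. These lie in the range of over 10% to 50%, and Prdx1 and Sod1 lay below the median of that class too. Sod2-201 shared 1.43%, in the range of up to 10%. Whether shared sequence set the values of Gpx4, Prdx1 and Sod1 was not tested, and annotation version and counting rule differed between the tables as well. Per kilobase in the smaller table, the order was Gpx1 (349.9 CPM per kilobase), Sod1 (327), Prdx5 (273), Prdx2 (212), Txnip (188), Prdx1 (160.2), Txn1 (116), Cat (109), Gpx4 (79.8) and Sod2 (38.3). Sod2 was lowest on all 3 measures, and Sod1 had rank 1, 1 and 2.

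**Figure D3:**
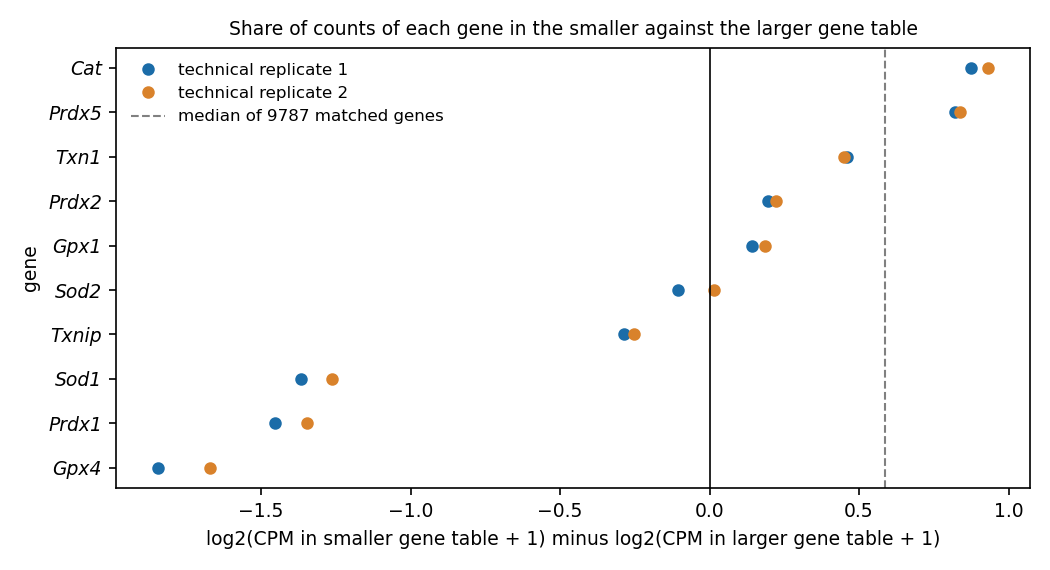
Difference in log2(CPM + 1) of each gene between the smaller and the larger table, with 1 point per technical library. Gpx4, Prdx1 and Sod1 lie farthest to the left, at means of -1.76, -1.40 and -1.31, the solid line marks equal shares and the dashed line the median of 0.59 over the 9787 matched genes.

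Genes of the same pathways were read as lists of TPM over all models, each described by its count at 1 TPM or more in both libraries and its median. Among the other peroxiredoxins and their repair genes, 6 of 8 were detected (median 25.7 ± 1.57 TPM). Prdx6, a peroxiredoxin with a single active cysteine, led with 235 ± 1.60 TPM, followed by the mitochondrial Prdx3 (90.7 ± 3.83 TPM) and the stress-induced sestrin Sesn1 (60.7 ± 3.17 TPM). Prdx4 of the endoplasmic reticulum stood at 28.5 ± 2.07 TPM, and sulfiredoxin (Srxn1), which repairs over-oxidised peroxiredoxins, at 2.49 and 1.78 TPM. The mitochondrial Prdx3 was thus lower than Prdx1, Prdx2 and Prdx5 in both libraries by TPM over all models. With CCDS transcripts Prdx5 stood at 53.6 TPM and Prdx2 at 42.3 TPM, and no CCDS level is given here for Prdx3.

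In the thioredoxin system 13 of 16 genes were detected (median 17.8 ± 1.78 TPM). The mitochondrial thioredoxin Txn2 (166 ± 2.65 TPM) stood above Txn1 in both libraries, and Txndc9 (110 ± 0.38 TPM) and Txndc17 (80.7 ± 2.02 TPM), both thioredoxin-like proteins, followed. The reductases that recharge thioredoxin were lower, with cytosolic Txnrd1 at 12.98 and 15.69 TPM and mitochondrial Txnrd2 at 15.76 and 14.95 TPM. Among the relatives of Txnip and the glucose-sensing regulators that are known to drive it, 6 of 8 were detected (median 7.49 ± 0.40 TPM). These were led by the alpha-arrestin Arrdc1 (157 ± 0.23 TPM), Mlx (44.7 ± 6.80 TPM) and its partner Mlxip (13.3 ± 0.26 TPM), and Arrdc5 had no read.

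The 12 genes of glutathione synthesis and recycling all stood below Gpx1 and Gpx4 in TPM over all models. With CCDS transcripts Gpx1 stood at 174 TPM and Gpx4 at 97.04 TPM, and no CCDS levels are given here for the 12 genes. Of these genes 10 of 12 were detected (median 8.64 ± 0.65 TPM), led by the glutaredoxins Glrx (171 ± 15.8 TPM), Glrx3 (88.7 ± 7.08 TPM) and Glrx2 (30.6 ± 2.52 TPM). Glutathione reductase (Gsr) stood at 7.61 ± 0.69 TPM and Chac1 had no read. Of the 6 other glutathione peroxidases, Gpx7 alone was detected (2.66 ± 0.22 TPM), Gpx3 stood at 0.63 and 1.5 TPM and Gpx2 at 0.03 and 0.14 TPM, and Gpx6 and Gpx8 had no read. A count of 0 allows up to 0.195 and 0.221 CPM. Of the glutathione S-transferases 10 of 16 were detected (median 1.94 ± 0.074 TPM), led by Gstp1 (397 ± 20.99 TPM), Mgst2 (132 ± 7.96 TPM) and Gstt2 (39.0 ± 0.18 TPM), and Gsta1, Gsta2 and Gstm2 had no read.

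Genes around the dismutases and oxidases spanned a wide range. Ccs, the chaperone that loads copper into Sod1, stood at 62.5 ± 3.54 TPM, and the extracellular dismutase Sod3 had 1 count in each library (0.02 TPM). Of 11 superoxide-producing oxidase genes 6 were detected (median 1.61 ± 0.23 TPM), led by the GTPase Rac2 (2994 ± 94.1 TPM), the oxidase subunit Cyba (535 ± 16.1 TPM) and the regulator Ncf4 (113 ± 6.94 TPM). Nox3, Duox1 and Duox2 had no read. All 13 peroxisome genes, whose products build the compartment of catalase, were detected (median 10.7 ± 0.23 TPM), led by Pex19 (62.6 ± 6.10 TPM), Pex2 (58.2 ± 2.30 TPM) and Pex16 (38.9 ± 1.10 TPM).

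The Nrf2 pathway, a main inducer of antioxidant genes, had 16 of 17 genes detected (median 15.3 ± 0.27 TPM). The ferritin chains Fth1 (1651 ± 10.3 TPM) and Ftl1 (1289 ± 43.7 TPM) led it, with the ubiquitin ligase subunit Rbx1 at 276 ± 12.0 TPM. Nfe2l2, which encodes Nrf2, stood at 35.2 ± 1.18 TPM and its repressor Keap1 at 15.3 ± 0.27 TPM. The inducible targets Hmox1 (5.82 and 3.6 TPM) and Nqo1 (0.70 and 0.48 TPM) were low. NADPH supply had 10 of 11 genes detected (median 23.4 ± 4.58 TPM), led by Taldo1 (200.2 ± 2.67 TPM), Tkt (151 ± 6.24 TPM) and Me2 (43.1 ± 3.19 TPM).

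The genes that build selenoproteins, on which Gpx1 and Gpx4 depend, were detected without exception (8 of 8), at a median of 22.6 ± 1.33 TPM, with the highest levels for Trnau1ap (35.9 ± 2.31 TPM), Secisbp2 (31.4 ± 1.17 TPM) and Pstk (30.9 ± 2.96 TPM). Of 11 other selenoproteins 10 were detected (median 82.5 ± 2.01 TPM), led by Selenow (686 ± 23.6 TPM), Selenok (278 ± 11.6 TPM) and Selenof (227 ± 5.75 TPM). Selenow thus exceeded both Gpx1 and Gpx4 in each library. Of 11 ferroptosis and lipid peroxide genes 7 were detected (median 2.34 ± 0.64 TPM), led by Ncoa4 (61.3 ± 6.37 TPM), Acsl4 (31.1 ± 4.37 TPM) and Dhodh (30.1 ± 0.33 TPM), and Alox5 had no read.

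**Figure D4:**
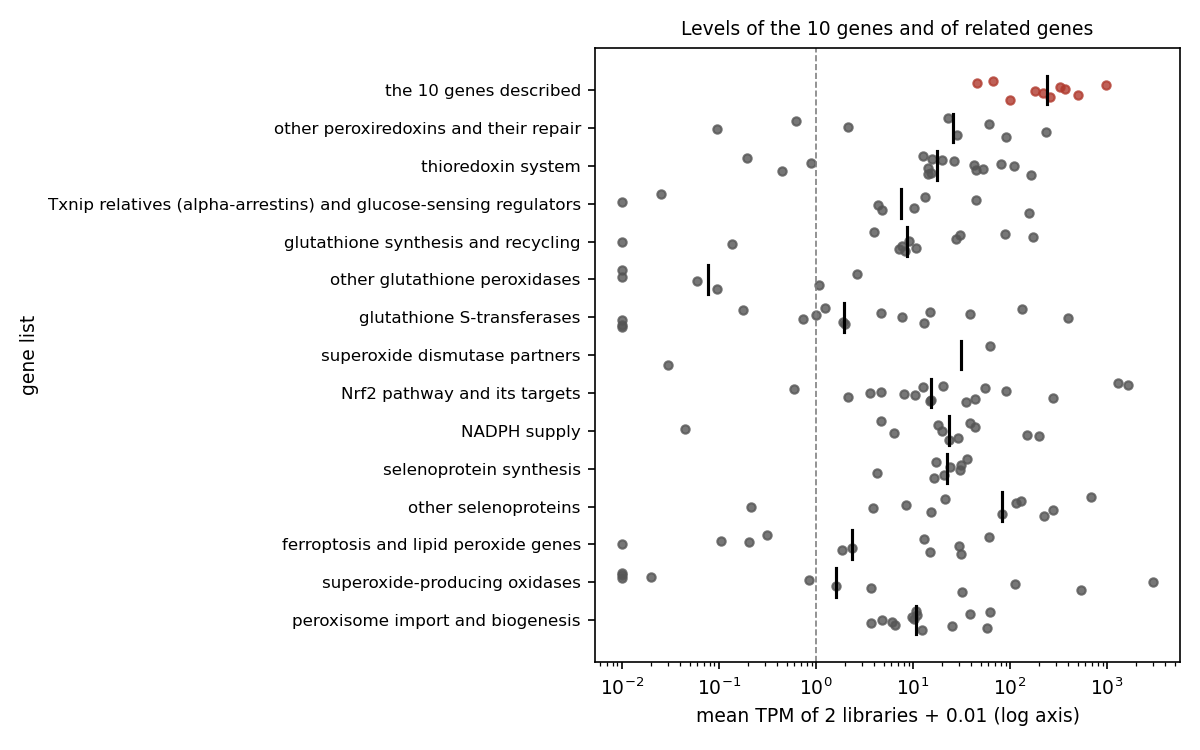
Mean TPM of each gene on the related lists, plus 0.01 on a log axis, with 1 point per gene, a bar at the list median and a dashed line at 1 TPM. The 10 members have a median of 239 TPM, and the medians of the other lists run from 0.0675 TPM for the other glutathione peroxidases to 82.5 TPM for the other selenoproteins.

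Promoters of all 10 genes were searched for 4 motifs on both strands, from 250 bases before to 50 bases after the start (RefSeq, GRCm38.p6). A match describes letters and is neither a site nor a cause. The carbohydrate response element, by which glucose-sensing factors are known to act on Txnip, was found in Txnip alone among the 10 and in 0.365% of 32851 promoters. The forkhead motif GTAAACA was also found in Txnip alone and in 3.65% of promoters. The antioxidant response element TGACNNNGC, bound by Nrf2, was found in Prdx1 and Sod1 and in 12.4% of promoters. The NF-kappaB motif was found in Txn1 and in 1.63% of promoters. The Txnip and Prdx1 windows are shown, 5′ to 3′ on the plus strand, with the matches in capitals, as the rarest match and as a match to the element of the Nrf2 pathway.
Txnip chr3:96557707-96558006: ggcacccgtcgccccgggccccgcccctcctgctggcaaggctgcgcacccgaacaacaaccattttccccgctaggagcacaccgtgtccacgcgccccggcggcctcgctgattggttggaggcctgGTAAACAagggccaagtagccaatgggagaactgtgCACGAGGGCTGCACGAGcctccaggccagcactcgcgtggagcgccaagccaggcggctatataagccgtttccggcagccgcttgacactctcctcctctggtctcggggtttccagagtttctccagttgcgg
Prdx1 chr4:116685349-116685648: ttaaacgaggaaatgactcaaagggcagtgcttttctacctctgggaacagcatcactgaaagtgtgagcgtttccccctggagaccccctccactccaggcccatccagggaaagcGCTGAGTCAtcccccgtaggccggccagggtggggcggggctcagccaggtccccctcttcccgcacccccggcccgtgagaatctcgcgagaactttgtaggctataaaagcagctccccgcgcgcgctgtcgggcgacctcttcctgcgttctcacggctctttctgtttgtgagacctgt
The carbohydrate response element is a pair of E-box-like repeats, matched in Txnip by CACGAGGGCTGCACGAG, and the NF-kappaB match in Txn1 reads GGAAAAACCC. In Txnip the forkhead match starts 121 bases and the carbohydrate response element 85 bases before the start of transcription, and these do not overlap. In Prdx1 the match starts 133 bases before it and lies on the minus strand. With 1 group of cells, no change in level could be set beside these matches.

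The technical libraries were compared gene by gene to measure the error of these levels, with a two-sided exact binomial test on rounded counts and Benjamini-Hochberg adjustment over all 17334 genes tested. Of the 10 members 2 were called at an adjusted p under 0.05, against 19.2% of all genes tested and 27.3% of the 2829 genes with a mean count of 1000 to 10000. Txn1 was higher in technical replicate 2 (log2 ratio 0.16, SE 0.060, adjusted p = 0.0435 by the exact binomial test). Cat was lower (log2 ratio -0.15, SE 0.048, adjusted p = 0.0161 by the same exact test). Among all genes 9.42% were called higher and 9.78% lower, so the members' share lay near the background and is no result about them. With DESeq2 size factors the adjusted p of Txn1 was 0.0636, and 1 member and 19.5% of genes were called. With no filter on low counts these were 1 member and 9.56%, and with total counts 2 members and 19.1%. The smaller table gave 0 members and 6.57% of genes, and with a common dispersion from edgeR 0 members and 1.8%, or 312 genes. That dispersion was estimated from the same libraries taken as replicates. It thus takes up the difference being tested, and fewer calls follow from its making. By unadjusted p under 0.05 the binomial test gave 2 members and 5320 genes.

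The other 8 members had log2 ratios from -0.07 for Gpx4 (adjusted p = 0.227 by the exact test) to 0.01 for Gpx1. The median size of the log2 ratio was 0.021 for the 10 members, 0.070 for the genes with a mean count of 1000 to 10000, and 0.20 for all genes tested. Of the 14 counterparts of the members on the related lists, 2 were called by the exact binomial test. Txnrd1 was higher (log2 ratio 0.31, adjusted p = 0.00488) and Hmox1 lower (log2 ratio -0.69, adjusted p = 0.0192) in technical replicate 2. Other list genes had smaller adjusted p by this test, such as Map3k5 (log2 ratio 0.40, 3.04e-05) and Acsl4 (log2 ratio -0.24, 2.15e-05). The counts per list below stand beside 19.2% called among all genes tested and are no result about the pathways. The thioredoxin system had 2 genes called higher and 1 lower of 16 tested, the Nrf2 pathway 1 higher and 3 lower of 17, and the peroxisome list 2 and 2 of 13. Glutathione synthesis and recycling had 2 higher and 1 lower of 11, the glutathione S-transferases 0 higher and 2 lower of 12, the other selenoproteins 0 and 2 of 11, and the ferroptosis list 1 and 2 of 9. NADPH supply had 1 higher and 0 lower of 9, and the oxidases 0 and 1 of 7. The other 5 lists had 0 called. These tests compare libraries of 1 biological replicate and no conditions.

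**Figure D5:**
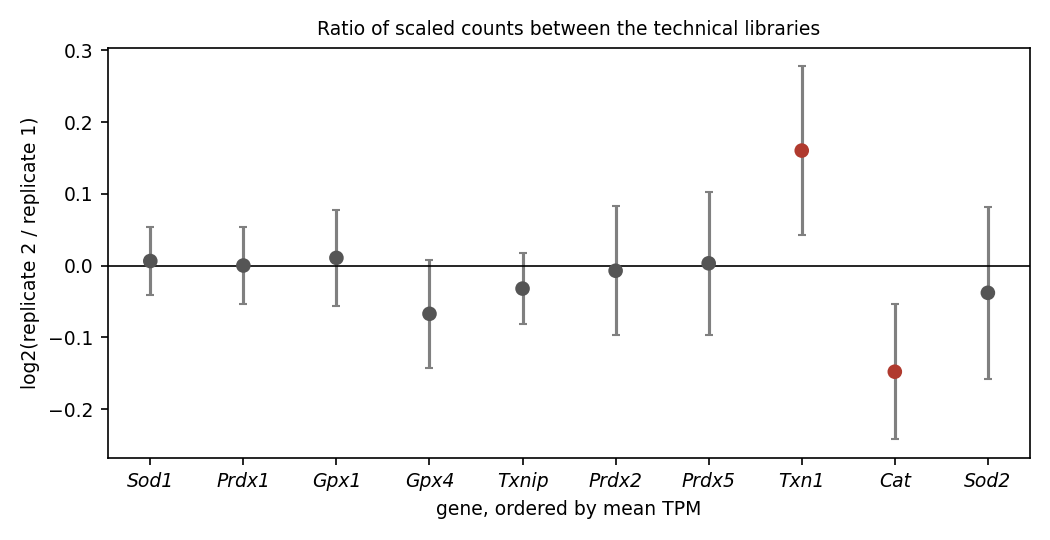
Log2 ratio of technical replicate 2 over 1 for the 10 members, with 95% counting intervals as bars. Txn1 at 0.16 and Cat at -0.15, in red, are the members called, and the other 8 members lie between -0.07 and 0.01.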

How the data were processed

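Polyadenylated RNA of 1 group was analysed in 2 technical libraries. The authors deposited estimated counts, TPM, FPKM (not used here), a posterior SD of the count and credibility bounds of TPM (recorded as signal values, bounds not used) for mm10 with GENCODE M21 genes, per the file headers and the text deposited with them. The transcript table held the percent of a gene's TPM per transcript, as deposited. The smaller table held whole-number counts, deposited by the authors with the older GENCODE M4 genes and derived from alignments to the genome. For the software, its versions and the handling of strand, the entry is: not given in the sources used here.

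The 10 genes and all lists were chosen with earlier results of these data known. All 10 are named, as are the 3 highest genes of each list, list genes without a read and 14 counterparts of the members. Of the pseudogenes named after a member or sharing sequence with it, a selection is named. Estimated counts were rounded, and entries without a gene name were left out (named genes held 99.83% and 99.84% of the counts). Genes with at least 10 counts in sum were tested between the libraries with an exact binomial test, library sizes scaled by TMM in edgeR 4.0.16, and p-values adjusted after Benjamini and Hochberg, in R 4.3.3 and Python 3.11.15 (scipy 1.17.1). No quasi-likelihood test could be fitted with 1 biological replicate. The binomial p-values set the difference between the technical libraries against read sampling alone. The test was run on simulated counts with Poisson error only, which is what it assumes, and made 8 false calls with 17412 genes tested. Between the real libraries 19.2% of genes were called. The simulation thus does not show how often the test is wrong here. Intervals were computed from the counts and cover counting error only. No molecular identifiers separate molecules from their PCR copies. A count of 0 allows up to 3 counts. DESeq2 1.42.0 gave size factors for an alternative. Sequences came from the GENCODE M21 annotation with its GRCm38 genome and from RefSeq promoters of GRCm38.p6, in which all 10 genes were matched.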

Additional observations from a re-analysis of the deposited data

How the results depend on the processing

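Of the 10 genes, 2 were called between the libraries, and also 2 with total counts as library sizes (19.1% of all genes). The number was 1 with DESeq2 size factors (19.5% of all genes tested), 1 with no filter on low counts (9.56%), 0 with the smaller gene table (6.57%) and 0 with a common dispersion (1.8%), and the cause was not tested. The common dispersion was estimated from the libraries it compares, so it is no independent check. Log2 ratios that changed sign were 0.00831 for Txnip, 0.0283 for Prdx2, 0.12 for Gpx4 and 0.0918 for Sod2 in the smaller table. With DESeq2 size factors they were -0.0113 for Prdx1, -0.00821 for Prdx5, -0.00064 for Gpx1 and -0.00503 for Sod1, and none of these 8 was called in either setting. Txn1 had an adjusted p of 0.0636 with DESeq2 size factors, 0.387 in the smaller table and 1 with a common dispersion, and Cat had 0.577 and 1 in the last 2 of these (exact binomial test, or edgeR dispersion).

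All 10 genes were detected without either library (10 to 10) and at a minimum of 10 TPM, and 7 at 100 TPM. With a pair of libraries, leaving one out cannot move a level by more than its SD, so this shows nothing on stability. All 10 levels moved by more than the SD with the posterior mean TPM, which was lower, and with TPM rescaled to protein-coding genes, which was higher. Chosen after seeing the data, CCDS transcripts alone lowered 9 levels and adding pseudogenes with a shared stretch of 50 bases moved 4. In 5 of the 14 related lists, the number of detected genes fell by over 1.5-fold at a minimum of 10 TPM. No paired analysis was possible because there was 1 group. The depth limits rare genes, at 0.195 and 0.221 CPM.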
